A study of Mus musculus with 6 samples.

Results

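The genes described here are Myc and 29 further genes of ribosome biogenesis and of the polyamine and pyrimidine pathways that Myc is known to drive, 30 in all. They were chosen by symbol, with 1 probe set per gene and with earlier results of these data known. Their shares beside those of all genes are therefore a description and not a test. Of the 30, 29 were measured by a probe set that names a single gene, among 22180 such genes on the array. Fbl, the methyltransferase of the box C/D particles, has only a probe set that names another gene as well and was not analysed here.

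Macrophages were grown from bone marrow of C57Bl/6 mice for 5 days in 20 ng/ml M-CSF, the growth factor of the macrophage lineage. A further culture of 6 days followed, with 50 ng/ml M-CSF (M-CSF), with 20 ng/ml FSL-1 (FSL-1), or with both 20 ng/ml FSL-1 and 10 µM nutlin-3a (FSL-1 + nutlin-3a), and each of these 3 groups has 2 arrays. FSL-1 is a synthetic lipopeptide that activates TLR2 with TLR6, and multinucleated giant cells is the name the submitters give to the cells it produced. Nutlin-3a is a small molecule known to occupy the p53 pocket of Mdm2 and so to stabilise p53. All 3 groups thus share the M-CSF preculture, and the labels do not say whether M-CSF was present during the FSL-1 cultures. In the comparisons with the M-CSF group, FSL-1 and any difference in M-CSF therefore cannot be told apart. A change with FSL-1 below names the group and not a cause. Strain and cell type are given, but not whether the 2 arrays of a group came from separate mice or cultures, so the p-values reflect only how far these arrays lie apart, and that distance may be technical.

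Myc is a transcription factor that pairs with Max, binds E-box sequences and raises the output of genes for ribosome production, polyamines and nucleotides. Ribosomes are built in the nucleolus: RNA polymerase I transcribes the ribosomal RNA precursor, small nucleolar ribonucleoproteins (snoRNPs) guide its methylation (box C/D) and pseudouridylation (box H/ACA), and assembly factors fold it with ribosomal proteins into the small and the large subunit. In macrophages M-CSF is known to induce Myc during growth, and p53 is known to oppose Myc and ribosome production in many cell types. Unassembled ribosomal proteins and some nucleolar proteins can also bind Mdm2.

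Values are log2 levels, and a gene passed where its p, adjusted over all 22180 genes by Benjamini-Hochberg, was under 0.05 (limma). The arrays were equalised by quantiles, so a change shared by most genes would not be seen, and levels are not set against each other between genes. RNA came from sorted cells whose gate is not given, and each array reads many cells at once, so fewer cells of a type and less RNA per cell cannot be told apart. The 29 genes had mean levels of 6.45 to 9.53 and all lay above 4.25, the median of probe sets without a gene name. All 11 measured macrophage markers lay above it too, at mean levels of 7.72 to 13.18, and some of them changed between groups, as given with the other cell markers.

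Of the 2 M-CSF arrays, replicate 1 was the lower for 25 of the 29 genes, against 51.1% of all genes, with a median difference of 0.14. The same held for 13 of 29 among the FSL-1 arrays and for 18 of 29 among the nutlin-3a arrays. The median SD between replicates of the 29 genes was 0.103 (log2, n = 2) for M-CSF, 0.0463 for FSL-1 and 0.0821 for nutlin-3a. Each comparison below is therefore also given with single arrays left out. In each such fit fewer of all genes passed as well.

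**Figure D1:**
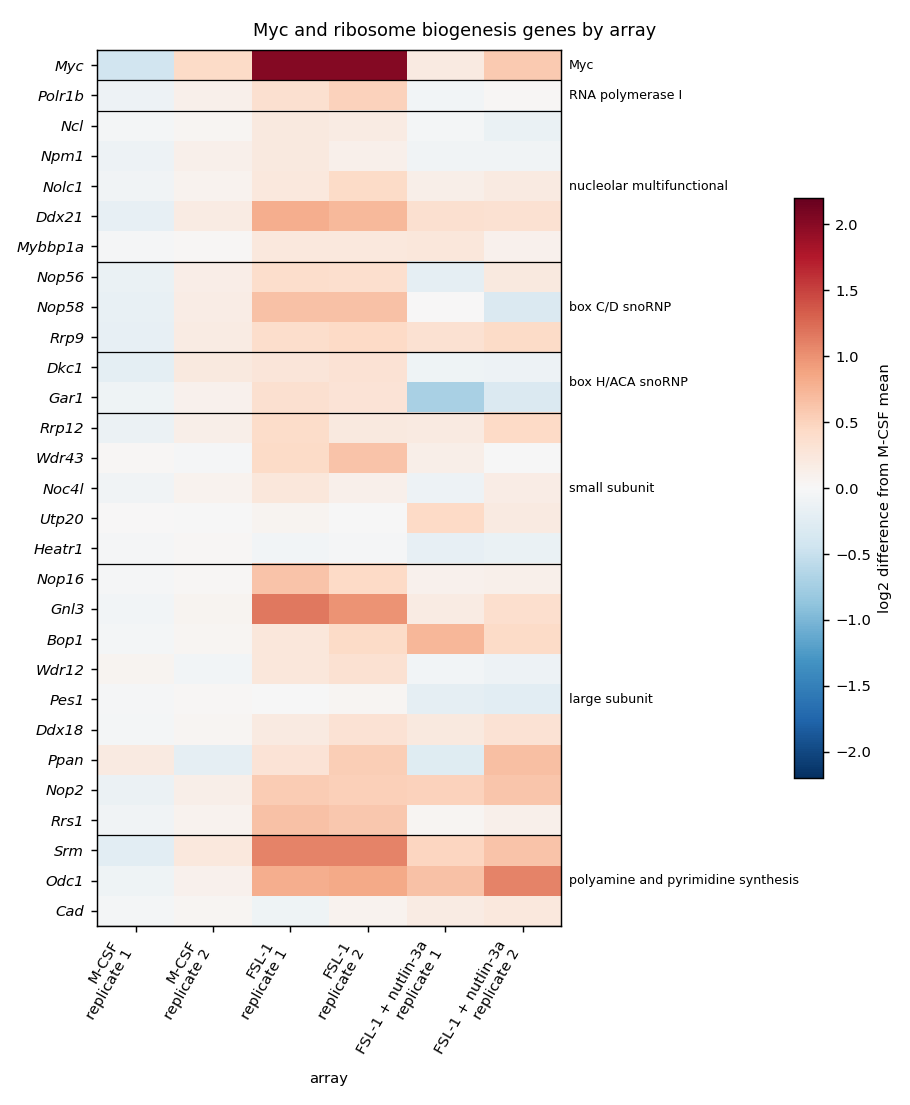
Heat map of the 29 genes (rows, grouped by role) on the 6 arrays (columns); colour is the log2 level minus the mean of the 2 M-CSF arrays of that gene, red above and blue below. Myc is reddest on both FSL-1 arrays, and Gar1 is bluest on nutlin-3a replicate 1.

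Setting FSL-1 against M-CSF shows how the giant cell cultures differ from macrophages kept in M-CSF. Of the 29 genes, 9 rose and 0 fell with FSL-1, a share of 31%, while 3.91% of all genes rose and 2.95% fell. Among the genes at least as bright as the dimmest of the 29, 7.82% rose. At an unadjusted p under 0.05, 15 of the 29 were higher and 0 lower, against 2376 higher and 2336 lower of all 22180 genes (limma). The median log2 change of the 29 was 0.34, against -0.01 for all genes. Every FSL-1 array lay above every M-CSF array for 25 of the 29, against 24.6% of all genes, and below for 1, against 25.6%.

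Myc itself had levels of 6.66 and 7.50 in M-CSF and of 9.11 and 9.10 in FSL-1. The FSL-1 arrays nearly coincide, while the M-CSF arrays lie apart by more than any other pair of replicates of this gene. Myc rose 4.06-fold (log2 change 2.02, SE 0.259, adjusted p = 0.00397). Without M-CSF replicate 1, the lower of the pair, the log2 change was 1.60. Without M-CSF replicate 2 it was 2.45.

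Among factors of the large subunit, Gnl3, the nucleolar GTP-binding protein nucleostemin, had levels of 8.18 and 8.30 in M-CSF and of 9.41 and 9.23 in FSL-1. It rose 2.11-fold (log2 change 1.08, SE 0.130, adjusted p = 0.00297). Rrs1, which in yeast helps to bring the 5S particle into the large subunit, had 6.62 and 6.77 in M-CSF and 7.34 and 7.29 in FSL-1. It rose by 0.62 (adjusted p = 0.0199); its dimmer probe set had 0.40 (adjusted p = 0.107). Nop16, a nucleolar assembly factor, had 7.57 and 7.61 against 8.22 and 8.02 in FSL-1, a log2 change of 0.53 (adjusted p = 0.0391). Nop2, which methylates a cytosine of the large ribosomal RNA, had 8.55 and 8.81 against 9.23 and 9.20, a change of 0.54 (adjusted p = 0.0491). These 4 genes had separate groups, with the FSL-1 arrays above both M-CSF arrays.

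The other 5 large-subunit genes did not pass. Pes1, Bop1 and Wdr12 form the PeBoW complex that is needed to process the large-subunit RNA. Their log2 changes were 0.01 for Pes1 (95% interval -0.24 to 0.27), 0.34 for Bop1 (0.01 to 0.67) and 0.29 for Wdr12 (0.03 to 0.56). The helicase Ddx18 had 0.26. Ppan, named for its fly counterpart Peter Pan, had 0.42 with arrays at 7.18 and 6.79 in M-CSF and at 7.28 and 7.53 in FSL-1, and 0.49 (adjusted p = 0.0502) at its dimmer probe set.

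Fewer of the other nucleolar genes passed. Ddx21, a helicase that links RNA polymerase I transcription with RNA processing, had 7.87 and 8.22 in M-CSF and 8.85 and 8.75 in FSL-1. It rose by 0.76 (SE 0.142, adjusted p = 0.0199), while its dimmer probe set had 0.31 (adjusted p = 0.471). Wdr43, a protein of the small-subunit processome, had 8.41 and 8.36 against 8.81 and 9.02, and rose by 0.53 (adjusted p = 0.0455).

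The abundant nucleolar proteins nucleolin (Ncl, log2 change 0.20) and nucleophosmin (Npm1, 0.16) did not pass. Neither did the snoRNP chaperone Nolc1 (0.33), the Myb-binding protein Mybbp1a (0.23) or the RNA polymerase I core subunit Polr1b (0.43, adjusted p = 0.0981). The box C/D genes Nop56 (0.38), Nop58 (0.65, adjusted p = 0.0511) and Rrp9 (0.41), the last of which binds U3 RNA, had positive changes without passing. The same was so for the box H/ACA genes Dkc1, the pseudouridine synthase (0.29), and Gar1 (0.33). Of the remaining small-subunit genes, Rrp12 had 0.30, Noc4l 0.18, Utp20 0.03 and Heatr1 -0.05.

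In the polyamine pathway, Srm, spermidine synthase, had levels of 8.46 and 8.91 in M-CSF and of 9.79 and 9.77 in FSL-1. Srm rose 2.13-fold (log2 change 1.09, SE 0.161, adjusted p = 0.00766). Odc1, ornithine decarboxylase, which makes the first polyamine, had 7.35 and 7.55 in M-CSF and 8.25 and 8.29 in FSL-1, and rose by 0.81 (adjusted p = 0.027). Cad, which carries the first steps of pyrimidine synthesis, had a log2 change of -0.02 (95% interval -0.30 to 0.26).

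The count of 9 depended on single arrays. Dropping M-CSF replicate 1 left 3 genes and dropping M-CSF replicate 2 left 5, while dropping FSL-1 replicate 1 or FSL-1 replicate 2 left 2 each. Myc and Gnl3 passed in all 4 of these fits and Srm in the 2 without an M-CSF array. Ddx21 and Rrs1 passed in 1, the fit without M-CSF replicate 2. Nop16, Wdr43, Odc1 and Nop2 passed in 0 of them (lowest adjusted p = 0.0526, limma). The median log2 change of the 29 stayed between 0.26 and 0.43.

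**Figure D2:**
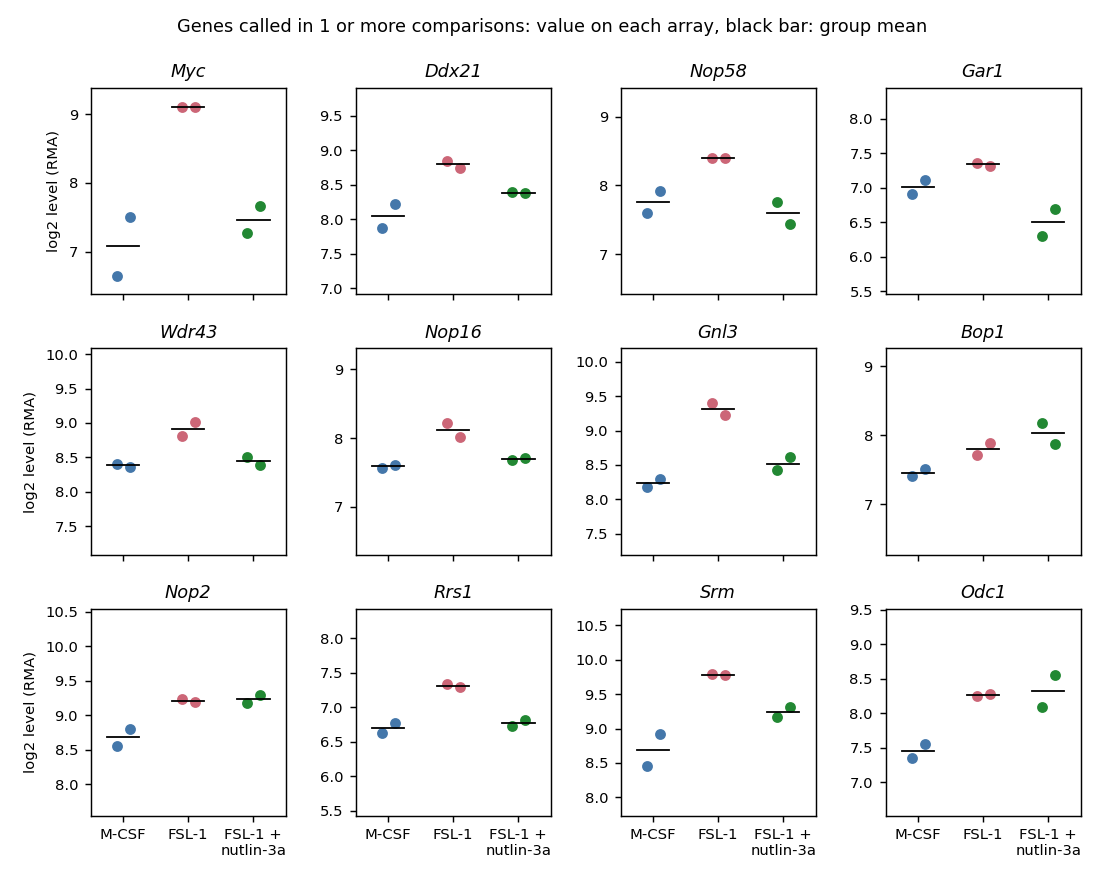
Level of the 12 genes called in 1 or more comparisons (log2, RMA, each panel spans the same log2 range): 1 point per array, black bar for the mean of the 2 arrays of a group. Myc lies near 9.1 in FSL-1 and at 7.27 and 7.66 with nutlin-3a, while Odc1 and Nop2 stay at or near their FSL-1 levels.

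Setting FSL-1 + nutlin-3a against FSL-1 shows which genes differ between cultures with and without it. Of the 29 genes, 5 fell and 0 rose with nutlin-3a, a share of 17.2%, while 4.12% of all genes fell and 2.38% rose. Among genes at least as bright as the dimmest of the 29, 8.33% fell. At an unadjusted p under 0.05, 13 of the 29 were lower and 0 higher, against 2406 lower and 2305 higher of all 22180 genes (limma). The median log2 change was -0.24, against 0.02 for all genes. The nutlin-3a arrays lay below both FSL-1 arrays for 18 of the 29, against 23.7% of all genes, and above for 2, against 27.2%. This comparison and the preceding one share the FSL-1 arrays, so an error in those arrays moves both in opposite directions.

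Myc had levels of 7.27 and 7.66 with nutlin-3a, below the 9.11 and 9.10 of FSL-1. It was 3.11-fold lower (log2 change -1.64, SE 0.259, adjusted p = 0.0114). Gnl3 had 8.43 and 8.62 with nutlin-3a and fell by 0.80 (adjusted p = 0.0129). Rrs1 had 6.73 and 6.81 and fell by 0.54 (adjusted p = 0.0349), with -0.24 (adjusted p = 0.323) at its dimmer probe set. These 3 genes passed in both comparisons, upward with FSL-1 and downward with nutlin-3a.

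The other genes that fell belong to the snoRNPs. Gar1, a core protein of the box H/ACA particles, had 7.36 and 7.32 in FSL-1 and 6.30 and 6.70 with nutlin-3a. It fell by 0.84 (SE 0.156, adjusted p = 0.0207), and its nutlin-3a arrays lay below both M-CSF arrays too, at 6.91 and 7.12. Nop58, a core protein of the box C/D particles, had 8.41 and 8.40 in FSL-1 and 7.76 and 7.44 with nutlin-3a, and fell by 0.80 (adjusted p = 0.0264). Their partners Dkc1 (-0.39, adjusted p = 0.197) and Nop56 (-0.37, adjusted p = 0.258) had changes of the same sign that did not pass. Rrp9 had -0.03.

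Of the genes that rose with FSL-1, 6 did not pass with nutlin-3a. Srm had 9.17 and 9.31 with nutlin-3a, below both FSL-1 arrays (log2 change -0.54, 95% interval -0.91 to -0.17, adjusted p = 0.0976). The changes of Ddx21 (-0.41), Nop16 (-0.43, adjusted p = 0.0824) and Wdr43 (-0.47, adjusted p = 0.0697) were also negative. At its dimmer probe set, however, Ddx21 had a log2 change of 0.0057. Odc1 had 8.10 and 8.55 with nutlin-3a, on either side of its FSL-1 arrays (log2 change 0.06, 95% interval -0.33 to 0.44). Nop2 had 9.19 and 9.29 (log2 change 0.02, 95% interval -0.28 to 0.32). The intervals of Odc1 and Nop2 do not reach the changes of Myc, Gnl3, Gar1 or Nop58, but the difference between genes was not tested.

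With either FSL-1 array dropped, none of the 5 passed, and the largest p of Myc was then 0.0808 (adjusted, limma). Without nutlin-3a replicate 1 only Nop58 passed, and without nutlin-3a replicate 2 Myc, Gnl3 and Gar1 passed. The log2 change of Myc in these 4 fits ran from -1.83 to -1.44, and the median of the 29 from -0.29 to -0.24. The signs of Odc1 and Nop2 turned without nutlin-3a replicate 2, to -0.17 and -0.029.

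**Figure D3:**
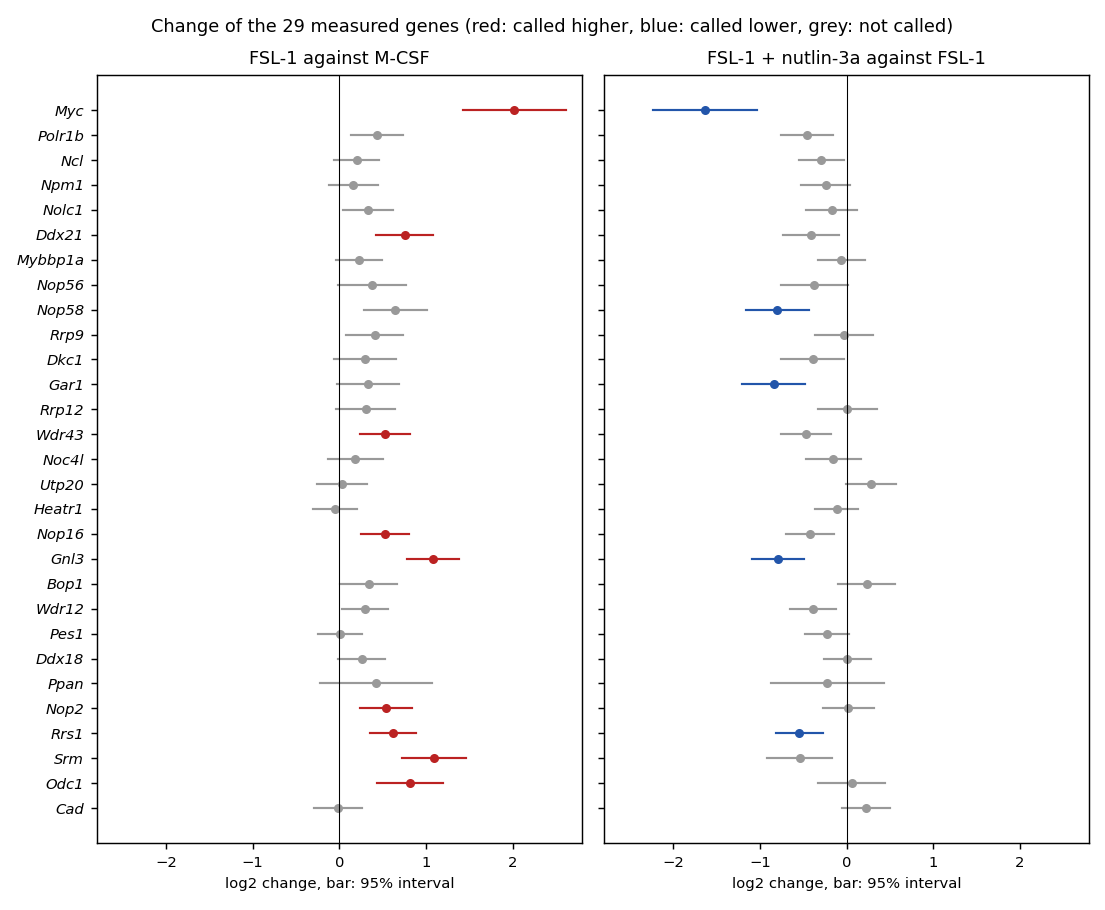
Log2 change of each of the 29 genes (points) with its 95% interval (bars) for FSL-1 against M-CSF (left) and FSL-1 + nutlin-3a against FSL-1 (right); red passed upward, blue passed downward and grey did not pass. Myc has the longest distance from 0 in both panels, at 2.02 and -1.64.

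FSL-1 + nutlin-3a was also set directly against M-CSF, which places the nutlin-3a cultures relative to macrophages without FSL-1. Here 3 of the 29 genes were higher (10.3%, against 4.58% of all genes and 8.91% of those at least as bright as the dimmest of the 29). None was lower, against 4.94% of all genes. At an unadjusted p under 0.05, 7 were higher and 1 lower, against 2650 higher and 2644 lower of all 22180 genes (limma). The nutlin-3a arrays lay above both M-CSF arrays for 14 of the 29, against 27.3% of all genes, and below both for 5, against 24.2%. The median log2 change was 0.16. Odc1 was 1.83-fold higher than in M-CSF (log2 change 0.87, adjusted p = 0.0154) and Nop2 1.47-fold (0.56, adjusted p = 0.0338). Bop1 had 7.41 and 7.51 in M-CSF, 7.71 and 7.89 in FSL-1 and 8.18 and 7.88 with nutlin-3a, and was higher than in M-CSF by 0.57 (adjusted p = 0.0441).

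Myc did not pass against M-CSF (log2 change 0.39, 95% interval -0.21 to 0.99), and its nutlin-3a arrays overlap the M-CSF arrays. Its value was -0.036 without M-CSF replicate 1 and 0.81 without M-CSF replicate 2. Gnl3 had 0.28, Rrs1 0.08, Nop58 -0.15 and Gar1 -0.51 (adjusted p = 0.0842). By group means, nutlin-3a lay between M-CSF and FSL-1 for 13 of the 29 genes, below both for 9 and above both for 7. Over all 22180 genes the shares were 31.2% between, 30.5% below both and 38.2% above both. The FSL-1 mean was above the M-CSF mean in 27 of the 29 genes and in 10731 of all genes. Nutlin-3a lay between in 13 of those 27 and in 3376 of those 10731. Of the count of 3, none was left without M-CSF replicate 1. There were 3 with M-CSF replicate 2 dropped (Odc1, Nop2 and Srm), and 1 without either nutlin-3a array (Odc1 without replicate 1, Bop1 without replicate 2) or without either FSL-1 array (Odc1). Gar1 was called lower without nutlin-3a replicate 2 (-0.71).

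Of the 29 genes, 12 passed in 1 or more of the 3 comparisons and 17 in 0 (limma). To show what the genes share in sequence, RefSeq promoter windows (GRCm38.p6, 250 bases before to 50 after the start site) were searched for the E-box CACGTG, which reads the same on both strands, and for the variant CACGCG or CGCGTG, which are each other on the opposite strand. The motifs do not overlap within a site, except that CACGCG and CGCGTG can share bases. Windows were found for 23 of the 29 genes. The E-box was present in 5 of the 23 genes (21.7%), against 9.19% of tested genes with a window and 8.09% of all genes with one. The variant was present in 7 (30.4%), against 13.9% and 10.5%. Of the 8 genes with a window that passed in a comparison, 2 held the E-box, 3 the variant and 5 either motif. Of the 15 that did not pass, 3 held the E-box, 4 the variant and 5 either motif. Myc, Srm, Rrs1 and Bop1 also passed in a comparison but had no window. The share of all genes with either motif was not taken, and a link between motif and call was not tested. A match is only a description of the letters in the window.

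Nop2 is shown in full because, among the genes with an E-box, it alone holds it before the start site. This E-box begins at position -60, counted from the start site. Nop2 was called higher than in M-CSF both with FSL-1 and with nutlin-3a, and a link between the motif and these levels was not tested. The 250 bases before the start (chr6:125131633-125131882, plus strand, E-box in capitals) read:
Nop2: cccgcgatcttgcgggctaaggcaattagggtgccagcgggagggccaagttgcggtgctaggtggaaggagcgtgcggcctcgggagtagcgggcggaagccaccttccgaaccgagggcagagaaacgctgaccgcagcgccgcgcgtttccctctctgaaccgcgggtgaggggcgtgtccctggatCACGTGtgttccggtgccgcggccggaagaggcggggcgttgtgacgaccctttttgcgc

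The other 4 E-boxes lie just after the start site, and 30 bases are shown around each so that the flanks can be compared (motif in capitals, each on the strand of its gene). They belong to Wdr43 (chr17:71616220-71616249, plus), Pes1 (chr11:3963965-3963994, plus), Mybbp1a (chr11:72441347-72441376, plus) and Utp20 (chr10:88826765-88826794, minus).
Wdr43: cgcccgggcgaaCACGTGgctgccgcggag
Pes1: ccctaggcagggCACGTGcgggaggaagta
Mybbp1a: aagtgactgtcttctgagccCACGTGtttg
Utp20: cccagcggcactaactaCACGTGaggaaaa
Of these 4 genes Wdr43 rose with FSL-1, while Pes1, Mybbp1a and Utp20 passed in no comparison, so the E-box was present in genes that moved and in genes that did not pass.

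Odc1 was called higher than in M-CSF both with FSL-1 and with nutlin-3a, and its window holds the variant motif at positions -180 and -101 from the start site. The sites are at chr12:17544681-17544710 and chr12:17544760-17544789 on the plus strand. Odc1 was picked for printing after its values were seen. The variant was also present in Ddx21 and Nop16, which rose with FSL-1. It was present as well in Nolc1, Mybbp1a, Pes1 and Ppan, which passed in no comparison.
Odc1 distal: ggtgatgtggtgCGCGTGcgcaggcctgcc
Odc1 proximal: cgggtgggtgggCACGCGctgcgccccgcc

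Other genes of the same pathways were taken from 8 lists. The Myc network list holds partners, antagonists and regulators of Myc. Of its 16 genes, 1 rose (6.25%, against 3.91% of all genes) and 2 fell (12.5%, against 2.95%) with FSL-1. At an unadjusted p under 0.05, 1 was higher and 3 lower (limma), and the median log2 change was -0.26. Mxd4, which competes with Myc for Max and represses, had 9.11 and 8.90 in M-CSF and 7.69 and 7.996 in FSL-1, and fell by 1.16 (adjusted p = 0.00492). Bmyc, a relative of Myc that lacks its DNA-binding end, had 8.90 and 8.59 in M-CSF and 7.37 and 7.56 in FSL-1, and fell by 1.28 (adjusted p = 0.00584). The groups of both genes were separate, in the direction opposite to Myc.

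With nutlin-3a, Mxd4 had 8.55 and 8.30 and Bmyc 7.82 and 8.25, above their FSL-1 arrays (log2 changes 0.58, adjusted p = 0.0697, and 0.57, adjusted p = 0.112). None of the 16 passed in that comparison (limma), with 2 higher and 1 lower at an unadjusted p under 0.05. Mlx, the partner of the Mondo factors, rose with FSL-1 by 0.69 (adjusted p = 0.0182). Max, the partner of Myc, had -0.08 with FSL-1 and 0.28 with nutlin-3a, and Fbxw7, which marks Myc for degradation, had -0.21 and -0.07. Mxd4 passed with FSL-1 whichever compared array was left out, and Bmyc did except without FSL-1 replicate 1 (adjusted p = 0.0581). Mlx passed in 1 of those 4 fits, the one without M-CSF replicate 2.

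The shares of the further lists are to be read against all genes, of which 3.91% rose and 2.95% fell with FSL-1 and 2.38% rose and 4.12% fell with nutlin-3a, and against genes at least as bright as the dimmest of the 29, of which 7.82% rose with FSL-1 and 8.33% fell with nutlin-3a. Over all 22180 genes, 2376 were higher and 2336 lower with FSL-1 at an unadjusted p under 0.05 (limma). With nutlin-3a these counts were 2305 and 2406. Differences between lists were not tested. Of 39 further small-subunit genes, 8 rose and 0 fell with FSL-1 (20.5%, median 0.26; 16 and 0 at an unadjusted p under 0.05, limma). Pno1, an RNA-binding factor of the small subunit, had 7.61 and 7.96 in M-CSF and 8.88 and 8.95 in FSL-1, and rose by 1.13 (adjusted p = 0.00366). Wdr75 rose by 0.91 (adjusted p = 0.0066) and Utp4, which is mutated in a human childhood cirrhosis, by 0.82 (adjusted p = 0.00819). With nutlin-3a, 5 of the 39 fell and 0 rose (median -0.20; 11 and 2 at an unadjusted p under 0.05, limma), including Krr1 (-0.77, adjusted p = 0.0123), Utp14a (-0.53) and Ltv1 (-0.57). Utp4 had 0.03 with nutlin-3a and remained 0.85 above M-CSF (adjusted p = 0.00454). With 1 of the 4 compared arrays dropped, 1 to 6 of the 39 rose with FSL-1 and 0 fell with nutlin-3a.

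Of 43 further large-subunit genes, 4 rose and 0 fell with FSL-1 (9.3%, near the 7.82% of bright genes, median 0.23; 17 and 0 at an unadjusted p under 0.05, limma). Rpf2, which in yeast acts together with Rrs1, rose by 1.01 (adjusted p = 0.0166), Gtpbp4 by 0.69 (adjusted p = 0.0117) and Nifk by 0.61 (adjusted p = 0.0251). With nutlin-3a, 5 fell and 0 rose (median -0.19; 10 and 2 at an unadjusted p under 0.05, limma), among them Pak1ip1 (-0.65, adjusted p = 0.0154), Brix1 (-0.62) and Nmd3, the export adaptor of the large subunit (-0.57). With 1 of them dropped, 0 to 2 rose with FSL-1 and 0 fell with nutlin-3a.

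Among 15 genes of the RNA polymerase I machinery only Rrn3, the initiation factor that carries growth signals to this polymerase, rose with FSL-1 (0.55, adjusted p = 0.0413), which passed in 0 of the 4 fits that drop a compared array. It had 0.01 with nutlin-3a, where none of the 15 passed (0 higher and 1 lower at an unadjusted p under 0.05, limma). Of 13 snoRNP core and assembly genes, 0 passed with FSL-1 and 0 with nutlin-3a. Without adjustment, 3 were higher and 0 lower with FSL-1 at a p under 0.05 (limma). With nutlin-3a, 2 were higher and 2 lower at that p.

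Of 59 measured ribosomal protein genes, 3 rose and 0 fell with FSL-1 (5.08%, between the 3.91% of all genes and the 7.82% of bright genes, median 0.20; 17 and 0 at an unadjusted p under 0.05, limma). These were Rps13 (0.78, adjusted p = 0.00858), Rpl9 (0.82) and Rps24 (0.65). With nutlin-3a, Rpl30 (-0.73, adjusted p = 0.0339) and Rpsa (-0.54, adjusted p = 0.0396) fell and 0 rose. The share that fell was 3.39%, below the 4.12% of all genes and the 8.33% of bright genes. At an unadjusted p under 0.05, 6 were lower and 3 higher, against 2406 lower and 2305 higher of all 22180 genes (limma). The median was -0.01, against 0.02 for all genes. Without 1 compared array, 0 to 3 rose with FSL-1 and 0 or 1 fell with nutlin-3a. Many ribosomal protein genes have near-identical processed copies in the mouse genome, so their probe sets may read more than the named gene.

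In the polyamine list, 2 of 10 rose and 0 fell with FSL-1 (20%, against 3.91% of all genes). With nutlin-3a 1 fell and 0 rose (10%, against 4.12%). At an unadjusted p under 0.05, 2 were higher and 1 lower in each comparison (limma). Those that rose with FSL-1 were Azin1, the antizyme inhibitor that protects ornithine decarboxylase (0.57, adjusted p = 0.043), and Arg2, which makes ornithine (0.63, adjusted p = 0.0498). Azin1 fell by 0.59 with nutlin-3a (adjusted p = 0.0405), whereas Arg2 had 0.05. Each passed with FSL-1 in 1 of the 4 fits that leave out a compared array, the one without M-CSF replicate 2, and the fall of Azin1 passed in 0 of 4 (limma).

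Of 17 nucleotide synthesis genes, 2 rose and 0 fell with FSL-1 (11.8%, against 3.91% of all genes and 7.82% of bright genes). These were the guanine nucleotide enzyme Impdh1 (1.04, adjusted p = 0.00182) and the CTP synthase Ctps (0.76, adjusted p = 0.0393). At an unadjusted p under 0.05, 6 were higher and 1 lower (limma). With nutlin-3a, 3 fell (17.6%, against 4.12% of all genes) and 1 rose (5.88%, against 2.38%). Without adjustment, 10 were lower and 1 higher at a p under 0.05 (limma). The ribonucleotide reductase subunits Rrm2 (-1.65, adjusted p = 0.00196) and Rrm1 (-1.34, adjusted p = 0.00816) and the purine enzyme Adss (-0.59, adjusted p = 0.0216) fell, and Prps2 rose by 0.58 (adjusted p = 0.03). Impdh1 and Rrm2 passed whichever compared array was left out. Ctps passed only without M-CSF replicate 2 and Rrm1 only without nutlin-3a replicate 1, and Adss and Prps2 passed in 0 of 4 such fits (limma).

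**Figure D4:**
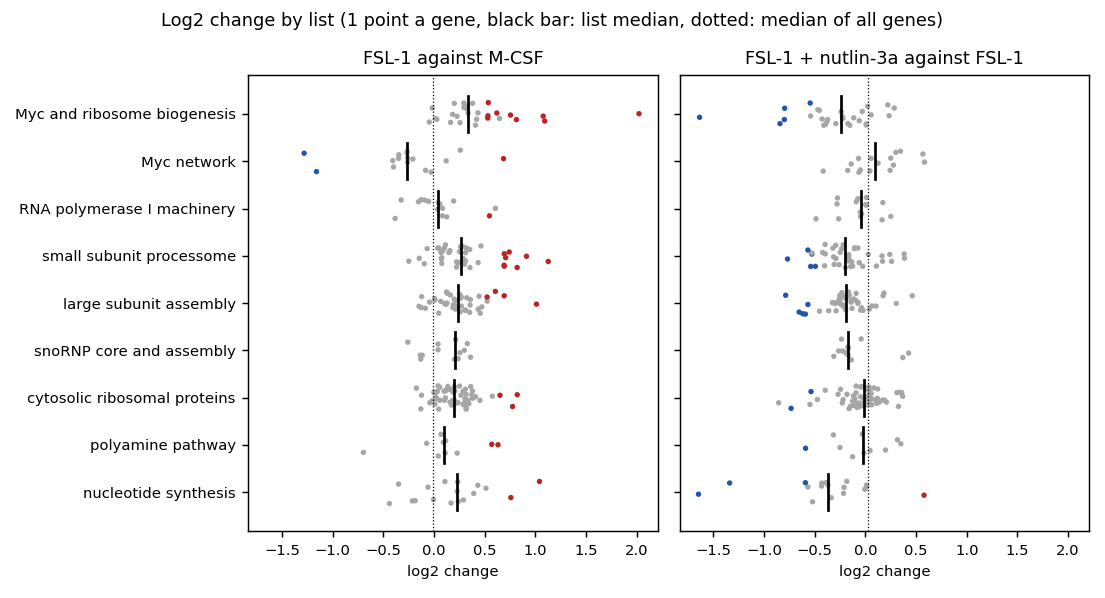
Log2 change of each gene (points) in the Myc and ribosome biogenesis genes and 8 further lists, for FSL-1 against M-CSF (left) and FSL-1 + nutlin-3a against FSL-1 (right); red passed upward, blue downward, grey did not pass, black bars are list medians and the dotted line is the median of all genes. The Myc network list has a median of -0.26 with FSL-1, while the subunit lists have 0.26 and 0.23.

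Markers of other processes and cell types moved in the same samples. Of 11 proliferation markers, 6 fell with FSL-1 (54.5%, against 2.95% of all genes, median -0.76), but 0 to 2 of the list fell with 1 of the 4 compared arrays left out. With nutlin-3a, 9 fell (81.8%, against 4.12% of all genes, median -1.39), and 6 to 7 of the list fell with 1 compared array left out.

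Among the 11 macrophage markers, Adgre1 (0.56, adjusted p = 0.0254) and Itgam (0.74, adjusted p = 0.00988) rose with FSL-1, and Csf1r, the M-CSF receptor, fell by 0.87 (adjusted p = 0.00858). With nutlin-3a, Tyrobp rose by 0.73 (adjusted p = 0.0105), while Cd14 fell by 1.12 (adjusted p = 0.00235) and Fcgr1 by 1.58 (adjusted p = 0.00228). Of the 11, 18.2% rose and 9.09% fell with FSL-1, against 3.91% and 2.95% of all genes. With nutlin-3a 9.09% rose and 18.2% fell, against 2.38% and 4.12%. With 1 compared array left out, 0 to 1 rose and 0 to 2 fell with FSL-1, and 0 to 1 rose and 2 fell with nutlin-3a. The summed log2 level of this list was 118 to 119 in M-CSF, 119 to 120 in FSL-1 and 118 to 119 with nutlin-3a.

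Of 12 fibroblast and stromal markers, 11 lay above the level of probe sets without a gene name. Their summed log2 level was 62.5 to 63.0 in M-CSF, 66.0 to 68.9 in FSL-1 and 62.4 to 63.5 with nutlin-3a. Acta2 and Vcam1 rose with FSL-1 (16.7%, against 3.91% of all genes), and 0 to 1 of the list rose with 1 compared array left out. Acta2 and Col1a2 fell with nutlin-3a (16.7%, against 4.12%), and 0 to 3 of the list fell with 1 compared array left out.

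Of 12 neutrophil markers, 8 lay above the level of probe sets without a gene name. The sums of the 12 were 55.7 to 56.1, 61.7 to 61.8 and 60.2 to 60.7 in the same order of groups. Their median log2 change with FSL-1 was 0.13, with 9 changes above 0, 3 below and the highest at 2.51. Of all genes, 3.91% rose with FSL-1 and 4.12% fell with nutlin-3a. S100a8, Cxcr2 and Mmp8 rose with FSL-1 (25%), and 2 to 3 of the list rose with 1 compared array left out, and Mmp8 fell with nutlin-3a, which passed in 0 such fits (limma). The sums of 9 dendritic cell markers were 54.8 to 54.9, 56.3 to 56.7 and 55.8 to 56.6. Of these 9, 2 rose with FSL-1 (22.2%) and 1 with nutlin-3a (11.1%), and 0 fell in either comparison. The sums of 11 lymphocyte markers were 56.3 to 57.7, 55.3 to 56.6 and 56.9 to 58.0. Among these 11, 1 rose and 1 fell with FSL-1 (9.09% each), and 1 rose and 0 fell with nutlin-3a. Over all genes, 2.95% fell with FSL-1 and 2.38% rose with nutlin-3a. No marker can read 0 on this scale. The cells were sorted before extraction, and a sort may remove cells of these types. The part of these cells and of proliferation in the values of the Myc and ribosome genes was not tested.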

How the data were processed

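RNA of sorted cells (gate not given) was measured on Affymetrix arrays, per the labels' protocols. The submitters' processing notes name RMA and Affymetrix Expression Console 1.4 as the tools behind the deposited table, whose unit is log2 signal for each probe set. The platform annotation used here names 1 gene for 23521 of 34390 probe sets (22180 genes, the brightest probe set kept for 1082 genes with several), several for 1814 and none for 9055. Array medians were 5.05 to 5.14, and no raw intensities were used. The number of arrays limits the precision.

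Models were fitted to all genes (lmFit and eBayes of limma 3.58.1, R 4.3.3) using all 6 arrays, with 3 residual and 4.88 prior degrees of freedom, after a test on simulated data. Intervals are 95% from this fit. The p of a dimmer probe set comes from a like fit over every probe set that names 1 gene. The genes and lists were chosen with earlier results of these data known. Listed genes under an older symbol were matched through RefSeq synonyms; those without a probe set of their own are not analysed here. All 29 genes are named, with every array's value for the 12 that passed in a comparison. From each list up to 3 passing genes per direction with the smallest p are named in the first 2 comparisons; Max, Fbxw7 and marker genes were named after their values were seen. The printed promoter stretch was limited to 30 bases where a motif lies after the start site. Alternatives were another moderation, a repeated quantile normalization, centring, the mean of probe sets, a filter on dim genes, the compared groups alone, a replicate block (also crossed, added after seeing the data), array weights and leaving out each array. In the latter fits the lone array of a group is assumed to vary like the other groups. Figures were drawn with matplotlib 3.10.9.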

Additional observations from a re-analysis of the deposited data

How the results depend on the processing

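With trend and robust moderation, 2744, 2658 and 3337 genes passed in place of 1521 (FSL-1 against M-CSF), 1441 (nutlin-3a against FSL-1) and 2110 (nutlin-3a against M-CSF). In this setting 9 of the 29 genes fell with nutlin-3a in place of 5, and 1 was lower than in M-CSF in place of 0. Over the 8 pathway lists (212 genes), the counts higher and lower went from 21 and 2 to 44 and 4 with FSL-1, from 1 and 16 to 10 and 29 with nutlin-3a, and from 15 and 6 to 38 and 15 for nutlin-3a against M-CSF. The 1 that rose with nutlin-3a was 3 after another quantile normalization or with dim genes filtered, 2 with array weights and 0 with the replicate block. The 16 that fell were 6 with the replicate block and 9 with it crossed for M-CSF. For nutlin-3a against M-CSF, the 3 of the 29 genes were 1 on the compared groups alone and with the replicate block, the 15 were 7 on the compared groups alone, and the 6 were 12 with dim genes filtered and 3 with the replicate block. Same-numbered arrays were not taken as pairs, since their deviations correlated at -0.188 (M-CSF and FSL-1), 0.0175 (M-CSF and nutlin-3a) and -0.0248 (FSL-1 and nutlin-3a). The block moved no other of these counts by over 1.5 times.

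Leaving out 1 array gave 2 to 6 of the 29 higher with FSL-1, 0 to 5 lower with nutlin-3a, and 0 to 3 higher and 0 to 1 lower for nutlin-3a against M-CSF. All genes passing were 451 to 1299, 352 to 1212 and 1158 to 1529. Pathway counts were 3 to 17 higher and 1 to 2 lower with FSL-1, 0 to 1 and 1 to 11 with nutlin-3a, and 3 to 9 and 2 to 6 against M-CSF. Myc ran from -1.83 to -1.44 with nutlin-3a and from -0.036 to 0.81 against M-CSF. Signs turned for Odc1 (-0.17 to 0.29) and Nop2 (-0.029 to 0.074) with nutlin-3a, and against M-CSF for Nop58 (-0.31 to 0.0084, with 0.0061 without M-CSF replicate 2) and Wdr43 (-0.00069 to 0.12). The cause was not tested, and each such fit has fewer samples. Myc passed with FSL-1 and with nutlin-3a under each of the 9 other settings. With 1 of the 4 compared arrays left out, it passed with FSL-1 in 4 fits and with nutlin-3a in 1, the fit without nutlin-3a replicate 2.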
